A study of Mus musculus with 6 samples.

Results

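A set of 10 genes of fibroblast growth factor (FGF) signalling were followed in tissue of albino and pigmented mouse embryos. The labels' protocol describes the tissue as isolated retinal pigment epithelium (RPE). The genes were chosen by name and not by their values, though earlier results of these data were known. They are the ligand genes Fgf9, Fgf10 and Fgf15, the receptor genes Fgfr1, Fgfr2 and Fgfr3, and the response genes Spry1, Spry2, Etv5 and Dusp6, or 10 of the 18193 genes that have a probe set of their own on the array. The study set 3 albino pools against 3 pigmented control pools at embryonic day 13.5, each pool holding tissue of 3 to 4 littermates, and 1 array was run per pool. Which gene is mutated, and on which strains, is not given in the labels, and both genotypes were untreated as far as the labels state. The labels call the 3 pools of a genotype biological replicates. The 10 genes are covered by 19 probe sets, of which 14 had a mean log2 level of at least 5 over the 6 arrays and were tested. The brightest probe set stands for its gene. Fgf10 lay below that level, so 9 of the 10 genes were tested.

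FGFs are secreted proteins that bind receptor tyrosine kinases together with heparan sulfate and switch on the RAS-MAPK cascade. In the embryonic eye FGF from the surface ectoderm favours neural retina in the distal optic vesicle, and RPE exposed to FGF can turn into neural retina. Cells that respond transcribe ETS factor genes such as Etv5, and also the feedback inhibitor genes Spry1, Spry2 and Dusp6, which are widely used as readouts of the pathway.

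The labels' protocol describes RPE isolated from the eyecup after lens, retina, cornea and surrounding tissue were taken off, while the sample descriptions speak of the whole eye region. RPE identity markers averaged 9.21 to 9.56 on the 6 arrays and 13 of 14 reached a mean of 5, the exception being Rpe65. Of these 13, 12 were lower in albino pools, and the list mean differed by -0.19, -0.23 and -0.03 between arrays numbered 1, 2 and 3. Of all tested genes 35.2% were lower in albino pools and 63.8% higher. Markers of other tissues were measured as well. Neural retina and retinal progenitor markers averaged 5.92 to 6.81 with 9 of 13 at or above 5, and 8 of these 9 were lower in albino pools. Periocular mesenchyme markers averaged 10.14 to 10.36 with 11 of 11 at or above 5. Skeletal muscle markers averaged 8.47 to 9.20 over the albino and 7.03 to 7.95 over the pigmented arrays, with all 12 tested members higher in albino pools. Lens markers averaged 5.07 on albino replicate 3 and 6.40 to 6.69 on the other arrays, and all 8 tested ones had lower means in albino pools. The levels below are thus those of the pooled tissue, with RNA of cells other than RPE in it, and not those of RPE alone. In pooled tissue a change in the number of cells of a type cannot be told apart from a change in RNA per cell.

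In limma, 0 of 23591 probe sets passed an adjusted p under 0.05 between the genotypes, which is 0% of those tested, and 1104 (4.68%) had an unadjusted p under 0.05. None of the 9 tested genes passed. The ligand and the receptor genes each lay on both sides of 0. All 4 response genes were higher in albino pools with an unadjusted p under 0.05, and the groups did not overlap at 3 of them. Arrays were paired by replicate number, although those numbered 2 and 3 correlated as closely when crossed. The response genes were higher on the albino array in all 3 pairs, as were 30.7% of all tested genes, and Fgfr2 and Fgf15 were lower in all 3, as were 13%. Among all 12098 tested genes, 3.47% were higher in albino pools at an unadjusted p under 0.05 and 1.31% lower. The genotypes did not overlap with albino higher at 7.97% and with albino lower at 3.38%. The median difference of the 9 genes was 0.21 on the log2 scale, beside 0.04 over all tested genes, and 6 of 9 were higher in albino pools against 63.8% of all genes, and 3 of 9 lower against 35.2%. The share of genes that lie higher depends on the scaling: after centring each array on its tested probe sets it was 5 of 9 here and 38.7% of all genes, with medians of 0.14 and -0.03.

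**Figure D1:**
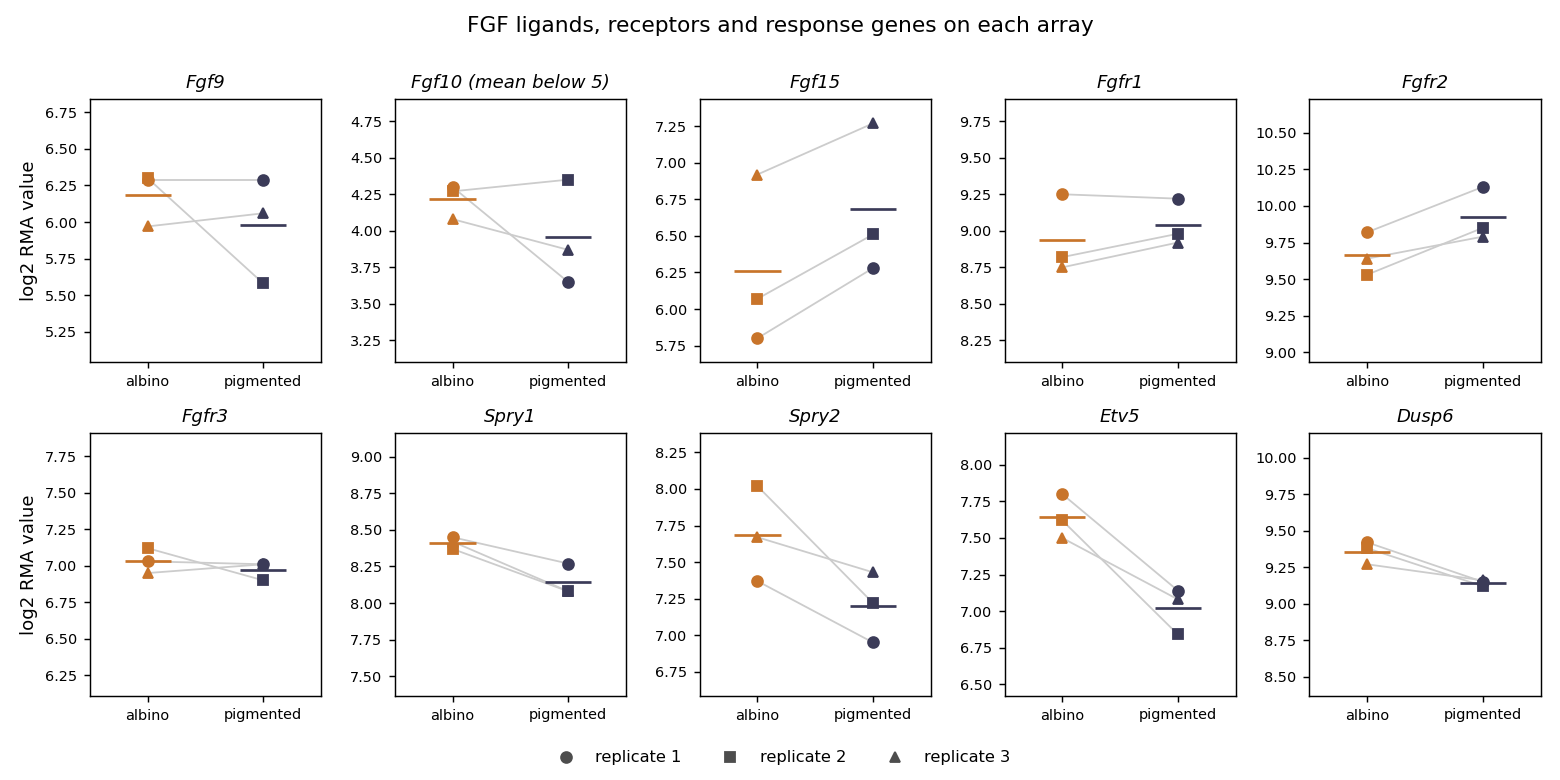
Log2 RMA values of the brightest probe set of each of the 10 genes, with albino arrays on the left and pigmented arrays on the right of each panel. Symbols give the replicate number, grey lines join arrays of the same number and horizontal bars are means of 3 arrays; every panel spans the same height on its own axis. Spry1, Etv5 and Dusp6 show no overlap between the genotypes, and Fgf15 differs more between numbers than between genotypes.

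Etv5, an ETS transcription factor gene induced by FGF, had the largest difference of the 10 genes by their brightest probe sets. It measured 7.80, 7.62 and 7.50 in the albino group against 7.14, 6.84 and 7.08 in the pigmented group. All 3 albino arrays lay above all 3 pigmented arrays. The means were 7.64 ± 0.15 and 7.02 ± 0.16 (SD, n = 3 each), 1.54-fold higher in albino pools, a log2 difference of 0.62 (95% confidence interval 0.32 to 0.92), with a limma adjusted p = 0.578. A second probe set differed by 0.57, but its pigmented mean of 4.79 was under the filter level, so it was tested only through the albino arrays and adds no support. The dimmest, with a mean of 4.97, gave 0.10 and was not tested. Leaving out any 1 array gave 0.53 to 0.69 for the brightest probe set.

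Spry1 and Spry2 encode Sprouty proteins, which dampen signalling from FGF receptors to RAS. Spry1 measured 8.45, 8.37 and 8.42 in the albino group against 8.27, 8.08 and 8.08 in the pigmented group. The groups were 0.10 apart at their nearest arrays. The means were 8.41 ± 0.04 and 8.14 ± 0.11 (SD, n = 3 each), a difference of 0.27 (SE 0.10, limma adjusted p = 0.988).

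Spry2 measured 7.37, 8.02 and 7.67 in the albino group against 6.95, 7.22 and 7.43 in the pigmented group. Albino replicate 1 lay just below pigmented replicate 3, so the groups overlapped, while the albino array was the higher of each number. The means were 7.69 ± 0.33 and 7.20 ± 0.24 (SD, n = 3 each), a difference of 0.49 (SE 0.20, limma adjusted p = 0.999). Its other probe set was below the filter, with a mean of 4.90, and gave 0.15. Without albino replicate 2, the highest array, the difference was 0.32.

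Dusp6 encodes a phosphatase that inactivates the MAP kinases ERK1 and ERK2. It measured 9.42, 9.38 and 9.27 in the albino group against 9.15, 9.12 and 9.16 in the pigmented group. The pigmented arrays were close together (SD 0.02) and below every albino array. The difference was 0.21 (SE 0.09, limma adjusted p = 0.999), or 1.16-fold.

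The exact permutation test over the 6 arrays gave a two-sided p = 0.1 for Etv5, Spry1 and Dusp6, the smallest value that 3 pools against 3 allow, and p = 0.2 for Spry2. Only Etv5 kept an unadjusted p under 0.05 when any single array was left out. The number of the 4 genes under 0.05 was then 1 without albino replicate 2, albino replicate 3 or pigmented replicate 2, and 2 without the first replicate of either genotype or without pigmented replicate 3. Over these fits 1.93% to 4.72% of all tested genes were higher at that level, beside 3.47% with every array kept. After cyclic loess and after centring on the tested probe sets the number was 2, Spry1 and Etv5. Of all genes 3.47% and 2.46% were then higher at that level. Fgfr2 was lower at that level in both, as were 3.08% and 4.46% of genes. Leaving out the first albino array also put Fgfr2 lower at that level, beside 1.73% of genes. With the Y-linked level as a covariate the number was 1, Etv5, with 1.82% of genes higher. The sign of the 4 response genes did not turn in any alternative.

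The sequences before the start sites of the 4 response genes are shown because these genes lay higher together and because ETS factors bind a GGAA core. Each is 250 bases upstream of an annotated start site (RefSeq, GRCm38.p6), 5′ to 3′ on the gene's strand, with GGAA or its reverse complement TTCC in capitals.
Etv5 first start site, chr16:22439571-22439820 (minus strand): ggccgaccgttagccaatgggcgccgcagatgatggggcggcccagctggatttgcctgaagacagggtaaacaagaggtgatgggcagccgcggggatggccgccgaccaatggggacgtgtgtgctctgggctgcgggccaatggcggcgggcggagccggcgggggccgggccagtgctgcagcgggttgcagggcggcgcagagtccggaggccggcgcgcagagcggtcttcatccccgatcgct
Etv5 second start site, chr16:22438369-22438618 (minus strand): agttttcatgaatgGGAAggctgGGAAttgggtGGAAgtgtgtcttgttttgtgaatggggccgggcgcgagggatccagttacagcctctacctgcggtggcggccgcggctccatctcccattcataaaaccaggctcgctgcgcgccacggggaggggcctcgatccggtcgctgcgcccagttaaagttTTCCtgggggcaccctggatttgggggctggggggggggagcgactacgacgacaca
Spry1, chr3:37639697-37639946 (plus strand): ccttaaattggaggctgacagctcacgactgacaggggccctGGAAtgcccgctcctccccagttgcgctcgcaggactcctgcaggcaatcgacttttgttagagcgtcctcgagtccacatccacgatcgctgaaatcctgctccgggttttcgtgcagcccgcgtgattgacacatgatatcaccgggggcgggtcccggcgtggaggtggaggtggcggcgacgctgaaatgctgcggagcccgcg
Spry2, chr14:105896820-105897069 (minus strand): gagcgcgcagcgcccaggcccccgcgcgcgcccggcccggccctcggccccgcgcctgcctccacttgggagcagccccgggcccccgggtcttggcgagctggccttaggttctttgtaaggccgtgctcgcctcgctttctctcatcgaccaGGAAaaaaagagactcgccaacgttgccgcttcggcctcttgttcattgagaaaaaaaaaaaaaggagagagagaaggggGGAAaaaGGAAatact
Dusp6, chr10:99262981-99263230 (plus strand): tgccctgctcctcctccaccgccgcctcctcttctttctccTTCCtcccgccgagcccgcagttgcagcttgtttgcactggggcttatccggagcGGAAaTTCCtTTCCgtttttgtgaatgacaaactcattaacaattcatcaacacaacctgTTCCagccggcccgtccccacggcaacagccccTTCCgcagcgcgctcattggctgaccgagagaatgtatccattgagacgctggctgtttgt
GGAA on either strand occurred at 6 places in the Dusp6 window, 3 in Spry2, 1 in Spry1, 0 before the first Etv5 start site and 4 before the second. Of all 32851 such windows 93.4% held it, with a median of 3 places, and 18% held 5 or more. The longer form AGGAAG, which contains GGAA, was found in 29.5% of all windows and, among the 4 genes, in the Dusp6 window 210 bases before the start. CCGGAA, which also contains GGAA, was found in 12% of all windows and in none of these 5. Members that were not higher held such matches too. Fgfr2, with a difference of -0.26, held GGAA at 2 places and AGGAAG 208 bases before its start. Fgfr3, with a difference of 0.06, held GGAA at 1 place before its first start site and 5 before its second. These are letter matches and not measured sites.

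Markers of muscle and of macrophages were higher in albino pools beside the response genes. Between arrays of the same number, albino minus pigmented, the skeletal muscle list mean differed by 1.77, 2.17 and 0.52 for numbers 1, 2 and 3. Etv5 differed by 0.66, 0.78 and 0.42 and Spry2 by 0.42, 0.80 and 0.24. Dusp6 differed by 0.27, 0.26 and 0.11, and Spry1 by 0.18, 0.29 and 0.34. The data do not favour pairs 2 and 3 over their crossing, so the order of these differences by number is not interpreted. The macrophage list averaged 7.05 to 7.16 over the albino and 6.89 to 7.01 over the pigmented arrays, with 9 of 11 markers higher and differences of 0.15, 0.15 and 0.21 by number. Surface ectoderm markers were higher in 6 of 8, with list differences of both signs, 0.36, 0.17 and -0.16. Of all tested genes 63.8% were higher in albino pools. The part of RNA from these cells in the differences of the response genes was not tested.

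**Figure D2:**
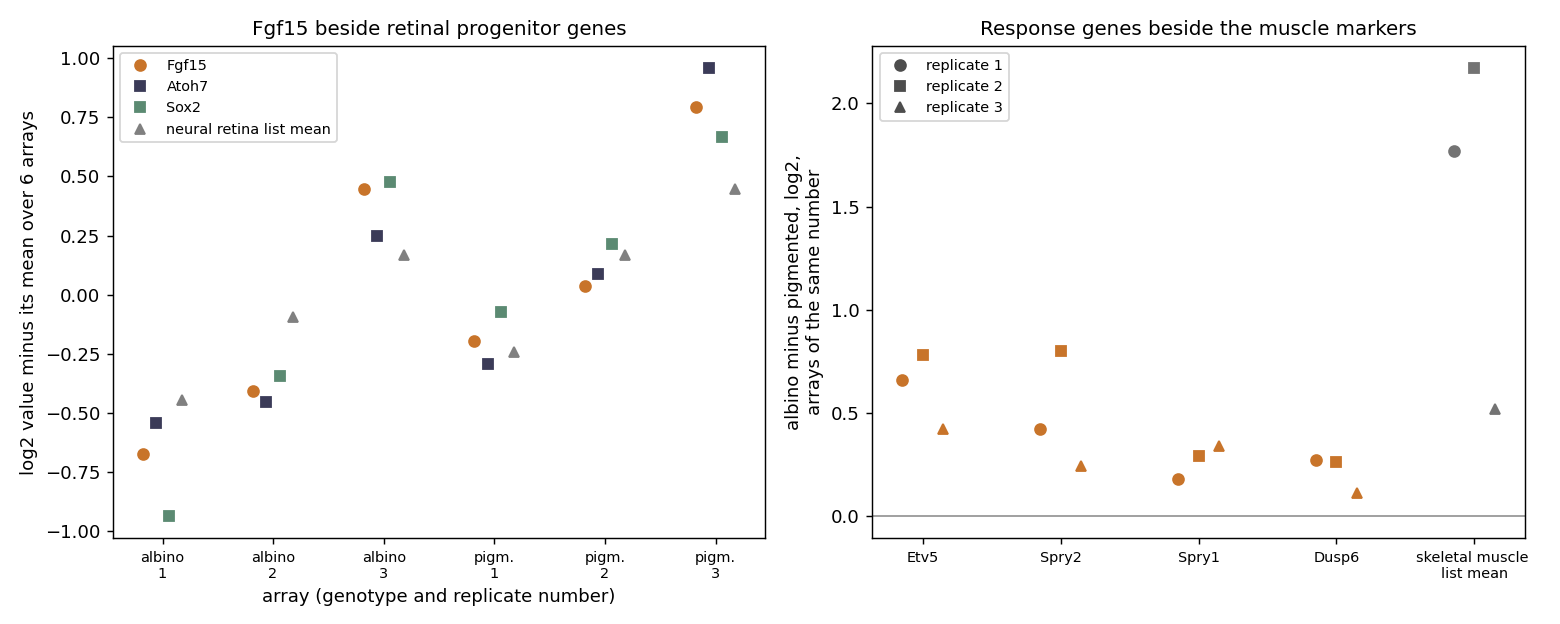
Left, log2 values of Fgf15, Atoh7, Sox2 and the neural retina list mean on each array, each minus its own mean over the 6 arrays. Atoh7 and Sox2 were picked for nearness to Fgf15 on these arrays and belong to that list, so they add no separate support. Fgf15 and the list mean were lower on the albino array of each number. Right, albino minus pigmented log2 differences between arrays of the same number for the 4 response genes and the mean of the skeletal muscle list, all above 0.

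Fgf15, the mouse counterpart of human FGF19, is a ligand gene of neural progenitors including those of the retina. It measured 5.80, 6.07 and 6.92 in the albino group against 6.28, 6.51 and 7.27 in the pigmented group. The arrays numbered 3 were the highest of both genotypes, and the groups overlapped over most of their range. The means were 6.26 ± 0.58 and 6.69 ± 0.52 (SD, n = 3 each), a difference of -0.42 (95% confidence interval -1.29 to 0.44, limma adjusted p = 0.999). Leaving out 1 array moved it between -0.13 without pigmented replicate 3 and -0.75 without albino replicate 3.

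Within numbers Fgf15 was steadier, with differences of -0.48, -0.44 and -0.35, but the labels do not give these pairs. Arrays numbered 2 and 3 correlated as closely when crossed. In such a crossing albino replicate 3 (6.92) lay above pigmented replicate 2 (6.51), so the steadiness depends on the pairing chosen. With the replicate number as a block, the limma adjusted p of Fgf15 was 0.192, so it passed in neither fit. A block raised the number of probe sets at an unadjusted p under 0.05 from 1104 to 4243, or 18% of those tested. Fgf15 and Fgfr2 were then lower in albino pools at that level, as were 5.54% of genes, and the 4 response genes higher, as were 11.3%. The neural retina list mean differed by -0.20, -0.26 and -0.28 between arrays of the same number.

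The genes outside the 10 whose pattern over the 6 arrays came nearest to Fgf15 were Atoh7, which directs retinal ganglion cell fate, and Sox2, a neural progenitor factor gene. Nearness was the root-mean-square difference of values centred on each gene's mean, 0.13 for Atoh7 and 0.15 for Sox2, among 1465 tested genes with at least 0.5 of the range of Fgf15. Atoh7 differed by -0.50 and Sox2 by -0.54 between the genotypes. Since both were picked for nearness to Fgf15 on these same arrays, their shared direction adds no support. Both are on the neural retina list. For Etv5 the nearest were the liprin gene Ppfia4 and Penk, the proenkephalin gene (0.06 each), and for Spry2 the transcript 5031426D15Rik (0.09) and Lpcat2 (0.10), a gene of phospholipid remodelling.

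Fgf9, a ligand gene of the embryonic retina, gave different answers on its 2 probe sets. The brighter one measured 6.29, 6.30 and 5.97 in the albino group against 6.29, 5.58 and 6.06 in the pigmented group. The groups overlapped, and pigmented replicate 2 was the low array. Its difference was 0.21 (SE 0.20, limma adjusted p = 0.999), 0.012 once pigmented replicate 2 was left out, and -0.069 with the Y-linked level as a covariate. Y-linked genes averaged 2.32 on pigmented replicate 2 and 5.98 to 7.99 on the other arrays.

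The dimmer Fgf9 probe set measured 5.97, 6.03 and 5.87 in the albino group against 4.94, 5.13 and 5.34 in the pigmented group. The genotypes were 0.53 apart at their nearest arrays. Its means were 5.96 ± 0.08 and 5.14 ± 0.20 (SD, n = 3 each), a difference of 0.82 (95% confidence interval 0.52 to 1.12, limma adjusted p = 0.50), the largest of the 14 tested probe sets in either direction. Averaged over both probe sets Fgf9 gave 0.52 (limma adjusted p = 0.427). Which of the 2 stands for the transcript was not tested.

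Fgf10, a mesenchymal ligand gene known for glandular budding, measured 4.30, 4.27 and 4.08 in the albino group against 3.65, 4.35 and 3.87 in the pigmented group. The groups overlapped at this dim level, with a difference of 0.26 and no test.

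The receptor genes encode the kinases that FGFs activate, and none of them differed by more than 0.26 on its brightest probe set. Fgfr2 measured 9.82, 9.53 and 9.64 in the albino group against 10.13, 9.85 and 9.79 in the pigmented group. Only albino replicate 1 and pigmented replicate 3 overlapped, by 0.03. It differed by -0.26, with a 95% confidence interval from -0.57 to 0.05 and a limma adjusted p = 0.999, and by -0.16 without pigmented replicate 1. By number it was -0.31, -0.32 and -0.15, and with the block the limma adjusted p was 0.204. The next brightest of its probe sets gave -0.04 (SE 0.09), and the dimmest, with a mean of 4.43, gave -0.20.

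Fgfr1 measured 9.25, 8.82 and 8.75 in the albino group against 9.22, 8.98 and 8.92 in the pigmented group. The arrays numbered 1 stood highest in both genotypes. It differed by -0.10, with a 95% confidence interval from -0.49 to 0.29 and a limma adjusted p = 0.999, and the 2 dimmer probe sets gave 0.12 (SE 0.12) and 0.04 (SE 0.14), so its direction is not settled.

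Fgfr3 varied least, with 7.03, 7.12 and 6.95 in the albino group against 7.01, 6.90 and 7.01 in the pigmented group. The 6 arrays spanned 0.22. It differed by 0.06, with a 95% confidence interval from -0.16 to 0.28 and a limma adjusted p = 0.999, and by -0.013 after centring on the tested probe sets. Its other probe set, with a mean of 4.38, gave -0.03.

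**Figure D3:**
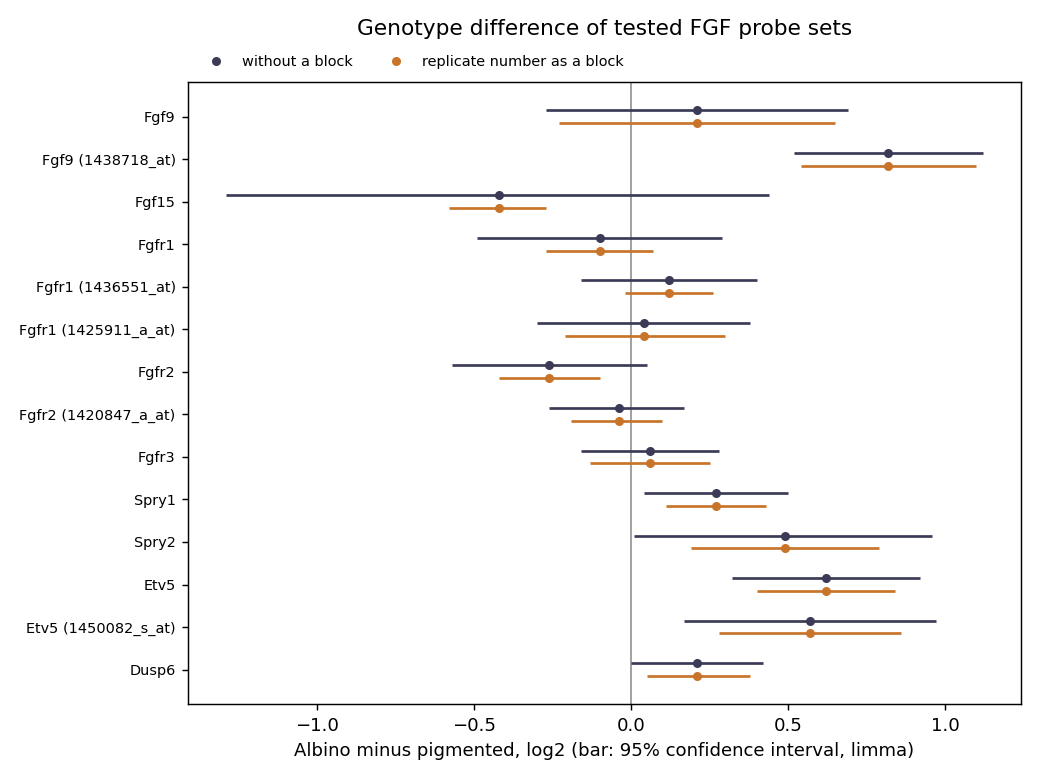
Albino minus pigmented log2 differences of the 14 tested probe sets, with 95% confidence intervals from limma without a block and with the replicate number as a block; a label without a probe set name is the brightest of its gene. The block narrows the interval of Fgf15 from -1.29 to 0.44 down to -0.58 to -0.27, and the 2 Fgf9 probe sets stand at 0.21 and 0.82.

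Beyond the 10 genes, the rest of the pathway was read from lists by role, and 0 genes of any list passed the adjusted threshold in limma with or without the block. Without overlap lay 7.97% of all tested genes with albino higher and 3.38% with albino lower, the background for genes named below. Of 19 other genes of the FGF family 13 lay below a mean of 5, among them Fgf1, Fgf2, Fgf3 and Fgf8. Not all of the 19 encode receptor ligands, since Fgf11, Fgf12, Fgf13 and Fgf14 encode intracellular homologues. Of the 6 tested, Fgf7 and Fgf18 were higher in albino pools at an unadjusted p under 0.05 and Fgf4 lower, as were 3.47% and 1.31% of all genes. Fgf7, a mesenchymal ligand gene for the epithelial form of FGFR2, measured 6.90, 6.83 and 6.56 in the albino group against 6.39, 5.62 and 6.14 in the pigmented group. Every albino array was above every pigmented array, and the difference was 0.71 (SE 0.21). Its second probe set differed by 0.59, but with a pigmented mean of 4.96 it passed the filter only through the albino arrays. Fgf18 differed by 0.48 (SE 0.17), also without overlap. Fgf4 differed by -0.23 (SE 0.09), while the dimmer probe sets gave 0.28, 0.26 and -0.08. Fgf13, which encodes an intracellular FGF homologue and was the brightest of these, differed by 0.04 (SE 0.11).

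Fgfr4, the receptor gene known from muscle progenitors, fell just below the filter with a mean of 4.99. It measured 5.63, 5.61 and 5.19 in the albino group against 4.48, 4.39 and 4.62 in the pigmented group. The groups were apart by 0.57, and the difference of 0.98 (SE 0.15) had a limma adjusted p of 0.844 when no filter was used. The skeletal muscle list mean was higher in the same albino pools by 1.49. Of the 15 tested co-receptor and binding genes 9 were higher and 6 lower (63.8% and 35.2% of all genes), with a median of 0.08 and 0 at an unadjusted p under 0.05. The smallest p belonged to the glypican genes Gpc2 (0.21, SE 0.10) and Gpc3 (0.23, SE 0.12), and to Flrt1 (0.22, SE 0.13), and the brightest was the syndecan gene Sdc2 (-0.04, SE 0.17).

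Enzymes that build or edit heparan sulfate, the polysaccharide that FGFs need at their receptors, were higher in albino pools in 9 of 10 tested genes, with a median of 0.10, in 6 after cyclic loess and in 5 after centring on the tested probe sets. The shares of all genes under these scalings were 63.8%, 51.8% and 38.7%. Hs3st1, a sulfotransferase gene, measured 7.52, 7.38 and 7.41 in the albino group against 7.01, 6.92 and 6.93 in the pigmented group. The groups were well apart for their spread, and the difference was 0.48 (SE 0.09, limma adjusted p = 0.507). Hs6st2, another sulfotransferase gene, differed by 0.39 (SE 0.11), without overlap. Its dimmer probe sets gave 0.62, -0.06 and 0.17. Ext1, a chain polymerase gene, differed by 0.22 (SE 0.12) on its brightest probe set and by -0.22 on the other, and the sulfatase gene Sulf2 by 0.05 (SE 0.15).

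Adaptors and the RAS-MAPK cascade had 8 of 15 tested genes higher, 6 lower and 1 equal, with a median of 0.01, and 3 of 15 higher after centring on the tested probe sets, beside 63.8% and 38.7% of all genes. Map2k1, which encodes MEK1, differed by 0.30 (SE 0.11), with all albino arrays above all pigmented arrays. Gab1, a docking protein gene, differed by -0.17 (SE 0.09), also without overlap, though its other probe sets gave -0.05 and -0.03. Araf differed by 0.18 (SE 0.12), with the 4 other probe sets on both sides of 0, and Nras by 0.00 (SE 0.15).

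The other feedback inhibitors had 11 of 14 tested genes higher, with a median of 0.13, beside 63.8% of all genes, and 10 of 14 beside 38.7% after centring on the tested probe sets. Of the 14, 3 were higher at an unadjusted p under 0.05, all without overlap, where 3.47% of all genes passed that p in this direction and 7.97% did not overlap. These were the dual-specificity phosphatase genes Dusp14 (0.54, SE 0.18) and Dusp1 (0.27, SE 0.10) and the Sprouty-related gene Spred3 (0.32, SE 0.12). After centring on the tested probe sets only Dusp14 of these kept an unadjusted limma p under 0.05 (0.0239). Dusp1 then had 0.0899 and Spred3 0.121. Dusp1 is also a stress response gene. The brightest, Rasa1, a RAS GTPase-activating protein gene, differed by 0.04 (SE 0.19).

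The remaining response genes did not share one direction, with 5 of 10 tested higher and 5 lower and a median of 0.02. Of all genes 63.8% were higher and 35.2% lower, with a median of 0.04. The groups did not overlap at 1 of the 10 with albino higher and at 2 with albino lower, beside 7.97% and 3.38% of all genes. Etv4, a close relative of Etv5, measured 5.69, 5.17 and 5.37 in the albino group against 5.67, 5.22 and 5.18 in the pigmented group. These groups overlapped throughout, with a difference of 0.05 (SE 0.19). Phlda1 differed by 0.41 (SE 0.17) without overlap, and by 0.23 without pigmented replicate 1. The ETS factor gene Ets1, prominent in endothelium and neural crest, was lower in albino pools by -0.49 (SE 0.12, limma adjusted p = 0.721), without overlap, with its 3 other probe sets at -0.39, 0.11 and -0.03. Endothelial markers averaged 8.03 to 8.16 on the albino and 8.07 to 8.17 on pigmented arrays, with 4 higher and 4 lower in albino pools. Of the periocular mesenchyme markers 5 were higher and 6 lower. The part of RNA from these cells in the Ets1 difference was not tested. The immediate early genes Egr1 (0.10, SE 0.12) and Fos (0.17, SE 0.15) and the cyclin gene Ccnd1 (-0.07, SE 0.18) overlapped between the genotypes. Ier2, another immediate early gene, differed by -0.14 (SE 0.09), its albino arrays 0.03 or more below the pigmented ones. Etv4, Egr1 and Fos, and Fgfr4 above, were chosen after their values were seen.

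**Figure D4:**
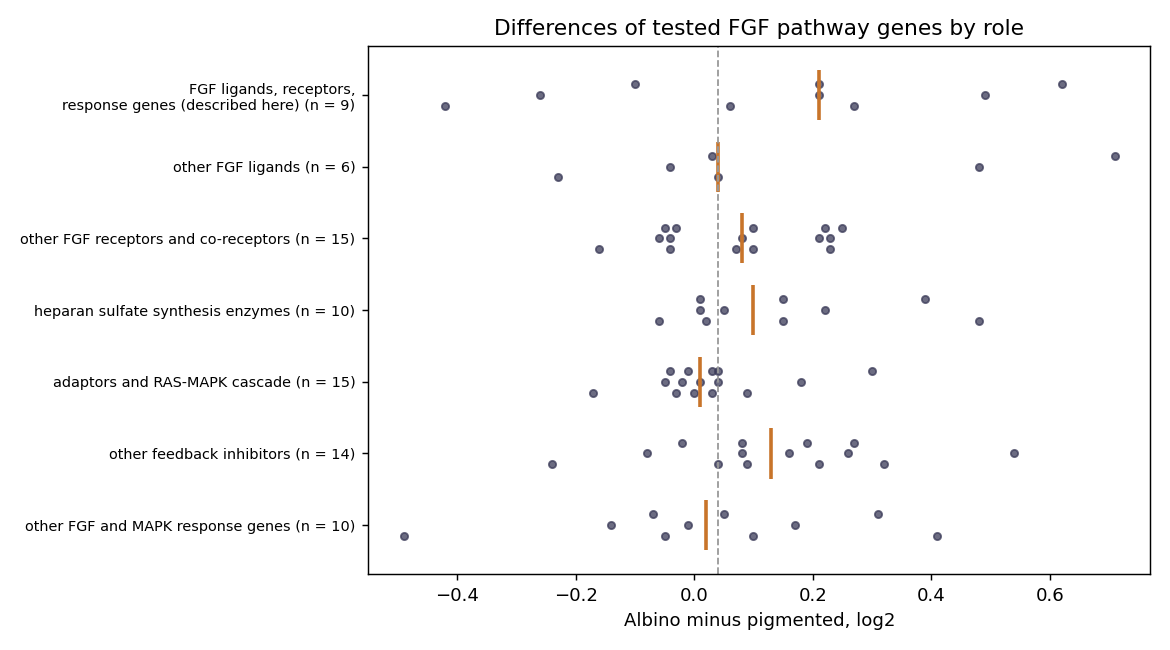
Albino minus pigmented log2 differences of every tested gene of the FGF pathway, by role, with 1 point per gene and an orange bar at the list's median. The dashed line is the median over all tested genes (0.04); the 10 genes described here, of which 9 are plotted, have a median of 0.21 and the other feedback inhibitors 0.13.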

How the data were processed

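RNA from 6 pools was measured on Affymetrix arrays using 100 ng of total RNA and 3'-primed biotin labelling, per the labels' protocols. The deposited values are log2 expression values made by the authors with Affymetrix Expression Console 1.1 and RMA, per the submitters' processing notes. The labels leave unstated if the arrays went through RMA jointly. RMA corrects background, quantile-normalizes arrays and summarises probes. Upper quartiles of the deposited arrays still ranged from 7.37 to 7.54. Differences are relative to the other probe sets, and the number of arrays limits precision.

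Probe sets were named from the platform annotation, and 34945 of 45101 named 1 gene. The 64 control probe sets and those with a mean below 5 were left out, which kept 23591. The genotype contrast was fitted with lmFit and eBayes of limma 3.58.1 (R 4.3.3, two-sided). Benjamini-Hochberg adjustment ran over all 23591 probe sets, with a threshold of 0.05. Every p-value of a gene comes from that fit unless the exact test or an alternative fit is named. Alternative fits, such as those with the block, no filter or averaged probe sets, were adjusted over their own tested features. The code was tested on simulated data. The labels do not say what a replicate number shares. Deviations from genotype means correlated at 0.863, 0.687 and 0.448 between arrays numbered 1, 2 and 3, so arrays of 1 number were treated as pairs on the evidence of the data alone. Across numbers, albino 2 with pigmented 3 (0.693) and albino 3 with pigmented 2 (0.546) correlated as closely, so the data set number 1 apart but do not favour pairs 2 and 3 over their crossing.

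The 10 genes and all lists were chosen with earlier results of these data known. From each list the 3 genes with the smallest p and the brightest were named. Alternatives were 3 scalings, 2 other filters, each array or both replicate 1 arrays left out, a replicate block, array weights, a Y-linked covariate and other probe set rules. Of these the centring on tested probe sets and the fits of other probe sets were chosen after seeing the data. Promoter sequences for Fgf15 and Fgfr1 were not used here.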

Additional observations from a re-analysis of the deposited data

How the results depend on the processing

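In limma 0 probe sets passed the adjusted threshold under each scaling, filter, covariate, weighting, block and left-out array tried, and the count was not taken under other probe set rules. The number at an unadjusted p under 0.05 was 1104, and 687 with the Y-linked covariate, 3510 with array weights, 4243 with the replicate block, 3052 without both replicate 1 arrays, and 567 to 1418 when 1 array was left out. Of the 1104, 68.8% were higher in albino pools. Of the 1455 under 0.05 after cyclic loess 51.8% were higher, and of the 1543 after centring on the tested probe sets 31.5%. Etv5, Spry1, Spry2, Dusp6, Fgf15, Fgfr2 and the second Fgf9 probe set kept their direction in all alternatives run. Fgf9 turned with the Y-linked covariate (-0.069). Fgfr2 was -0.043 when probe sets with the suffix _x_at or _s_at were dropped. Fgfr1 turned with probe sets averaged (0.022) and when those probe sets were dropped (0.12), where another probe set stands for the gene. Fgfr3 turned after centring on the tested probe sets (-0.013). The dimmest Fgfr1 probe set turned with array weights (-0.075), after that centring (-0.03), without both replicate 1 arrays (-0.09) and without albino replicate 1 (-0.10 to 0.13 over the arrays left out). The dimmer tested Fgfr2 probe set turned without pigmented replicate 1 (-0.07 to 0.005 over the arrays left out). For the other turns the cause was not tested. The replicate block changed no adjusted call. Fgf10 lay too dim for a test.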
